A study of Mus musculus with 8 samples.

Results

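Small nucleolar RNAs (snoRNAs) and the genes that host them were examined in 1 embryonic stem cell line and 4 secondary induced pluripotent stem cell (iPSC) lines of the mouse. Members were the rows named Snord (box C/D RNAs), Snora (box H/ACA RNAs), Snhg with a number (small nucleolar RNA host genes) or Gas5. This rule used names only and picked 126 of the 22878 rows: 77 box C/D rows, 37 box H/ACA rows and 12 host genes. The reference line R1 is an embryo-derived ESC line. The iPSC lines came from somatic cells of mice made entirely from iPSCs that carry doxycycline-inducible reprogramming factors, and all of them had been reprogrammed again by that agent. Line 16-6 was derived from hematopoietic cells, line 32 from adipocyte progenitors, S8 from epidermal cells and T2 from the stomach lining. RNA-seq libraries of poly(A)-enriched RNA numbered 2 for R1, 16-6 and 32 and 1 for S8 and T2, so S8 and T2 have no replicate of their own. Each group is 1 cell line. The study calls its replicates biological, while no label separates cultures. The p-values therefore measure the spread between these libraries, and how far it is technical is not known. The labels name embryo as the tissue, while the study describes cell pellets of the lines.

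snoRNAs are short nucleolar RNAs that guide the chemical modification of ribosomal RNA. Box C/D RNAs carry a C box near the 5′ end and a D box near the 3′ end and guide ribose methylation by fibrillarin (Fbl), whereas box H/ACA RNAs end in an ACA box and guide pseudouridylation by dyskerin (Dkc1). In mammals most of them are cut out of introns of host genes after splicing. Many hosts code for ribosomal proteins or translation factors, and others, such as Gas5 and the Snhg genes, yield a spliced RNA without a conserved protein, which is usually degraded during translation. Mature snoRNAs carry no poly(A) tail and are mostly shorter than the fragments that such libraries are made from.

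The short RNAs on which the comparisons rest are shown by their sequence, read from mm9 by the coordinates of the files on the strand of the annotation. Capitals in box C/D RNAs mark TGATG, the core of the C box, within the first 20 bases and CTGA, the D box, within the last 12 bases. Capitals in box H/ACA RNAs mark ACA within the last 7 bases.
Snord32a (Rpl13a, chr7:52382753-52382833, minus strand): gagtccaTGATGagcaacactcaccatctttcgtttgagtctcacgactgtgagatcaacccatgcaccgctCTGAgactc
Snord33 (Rpl13a, chr7:52382234-52382315, minus strand): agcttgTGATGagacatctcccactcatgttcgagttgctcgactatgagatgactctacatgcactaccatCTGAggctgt
Snord34 (Rpl13a, chr7:52381973-52382038, minus strand): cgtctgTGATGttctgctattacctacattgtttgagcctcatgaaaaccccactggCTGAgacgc
Snord16a (Rpl4, chr9:64023239-64023329, plus strand): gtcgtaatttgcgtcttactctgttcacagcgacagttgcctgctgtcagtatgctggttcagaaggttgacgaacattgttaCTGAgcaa
Snord69 (Gnl3, chr14:31827479-31827537, minus strand): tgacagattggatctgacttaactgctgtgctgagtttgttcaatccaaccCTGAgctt
Snord100 (Rps12, chr10:23505560-23505627, minus strand): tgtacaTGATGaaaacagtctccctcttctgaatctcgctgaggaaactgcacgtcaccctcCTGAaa
Snora81 (Eif4a2, chr16:23110843-23111006, plus strand): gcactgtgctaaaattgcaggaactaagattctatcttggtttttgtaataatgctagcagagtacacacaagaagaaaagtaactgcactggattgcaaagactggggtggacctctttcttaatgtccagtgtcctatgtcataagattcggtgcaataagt
Snora65 (Rpl12, chr2:32818821-32818938, plus strand): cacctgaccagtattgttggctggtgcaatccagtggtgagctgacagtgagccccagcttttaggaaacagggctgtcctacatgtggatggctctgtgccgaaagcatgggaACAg
Snora7a (Rpl32, chr6:115757993-115758121, minus strand): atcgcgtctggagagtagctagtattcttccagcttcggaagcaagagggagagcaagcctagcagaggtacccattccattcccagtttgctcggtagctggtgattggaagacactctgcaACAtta
Snora17 (Snhg7, chr2:26494710-26494841, minus strand): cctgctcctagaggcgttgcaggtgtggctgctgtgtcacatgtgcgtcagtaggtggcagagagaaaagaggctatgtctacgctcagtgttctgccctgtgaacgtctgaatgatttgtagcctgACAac
Snora70 (Rpl10, chrX:71517831-71517959, plus strand): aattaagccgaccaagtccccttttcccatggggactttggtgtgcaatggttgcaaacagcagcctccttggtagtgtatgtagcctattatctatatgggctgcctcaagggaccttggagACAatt

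Most rows held the D box or the ACA box of their class, and fewer held the C box. The names that the rule used follow the class, so these counts describe the rows and test nothing. On the transcribed strand, 75 of 77 box C/D rows (97.4%) held CTGA within the last 12 bases, against 2 of the 77 windows of the same length next upstream, and 34 rows also held TGATG within the first 20 bases, against 0 windows with both. ACA stood within the last 7 bases of 34 of 37 box H/ACA rows (91.9%), of 2 of their 37 upstream windows and of 1 box C/D row. The boxes did not separate the rows that were seen from those that were not. At least 1 fragment was present in some library for 21 of the 34 box C/D rows with both boxes and for 33 of the 43 others, which were shorter, with a median of 62 bases against 81.5.

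Levels were deposited as FPKM, that is fragments per kilobase of transcript and per 1000000 fragments, each with a confidence interval. All values were divided by 1 constant, 12725.7, so that the median library summed to 1000000, and FPKM below refers to these values. The number of fragments behind a value was recovered from the upper confidence limit. For 97.9% of the short RNA values under 50 fragments it came out whole to within 0.01. Library totals ran from 15.5 to 16.7 in units of 1000000 such fragments. They do not follow the read numbers of the study, which are far higher for S8 and T2 than for the other libraries. FPKM of very short rows rest on few fragments, because only fragments that could fit the row enter the length correction. The median FPKM that 1 fragment was worth was 305 for box C/D rows, 21.5 for box H/ACA rows, 0.210 for host genes and 0.0339 for other rows of 200 bases or more. For Snord37 and Snord70, both of 53 bases, 1 fragment was worth 5822 and 5874 FPKM as a median over the libraries that held any. A count of 1 has an exact 95% Poisson interval of 0.0253 to 5.57 fragments and a count of 10 one of 4.80 to 18.4, and all such intervals cover counting error only.

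**Figure D1:**
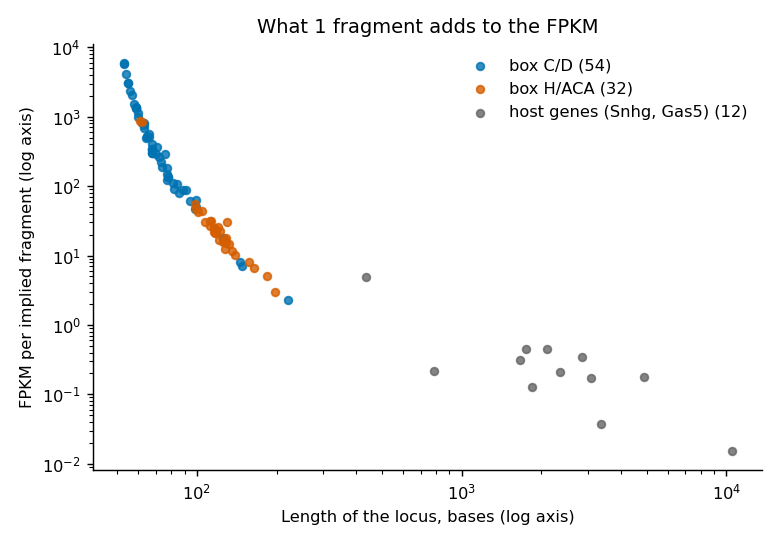
FPKM that 1 implied fragment was worth (median over libraries, log axis) against the length of the locus in bases (log axis) for the 98 members with at least 1 fragment. The value falls with length, from a median of 305 in box C/D rows and 21.5 in box H/ACA rows to 0.210 in host genes.

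Box C/D rows held nearly all of the FPKM of the members and host genes nearly all of the fragments. In FPKM the members held 18.2% and 22.6% of the library total in R1, 22.3% and 20.1% in 16-6, 29.1% and 27.8% in 32, 17.3% in S8 and 16.4% in T2. Of this, box C/D rows made up 14.7% to 28.5% of the total, box H/ACA rows 0.441% to 1.57% and host genes 0.116% to 0.148%. The libraries of 32 lay above all others, R1 and 16-6 overlapped, and S8 and T2 lay below every other library. Whether libraries of a line lay closer together than other pairings was tested over all 420 divisions of the 8 libraries into 3 pairs and 2 single libraries, and the threshold of 0.05 was missed (exact permutation test, one-sided, p = 0.0571, 0.0857 after Benjamini-Hochberg adjustment over 6 such tests, smallest possible p 0.00238). The share rested on few rows: Snord69, Snord34 and the copy of Snord58b in Rpl17, or Snord42b in their place, made up 57.1% to 60.5% of the box C/D FPKM in each library of R1, 16-6 and 32. In S8 and T2 Snord19 led with 7 and 6 fragments.

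In fragments the order was another. The members held 409 and 443 fragments per 1000000 in R1, 469 and 476 in 16-6, 555 and 546 in 32, 559 in S8 and 514 in T2. R1 was lowest, 16-6 next, and 32, S8 and T2 were highest. Libraries of a line were closer to each other than to those of other lines by this measure (exact permutation test, one-sided, p = 0.00714, adjusted 0.0190). Host genes supplied 5646 to 8406 fragments per library, box C/D rows 280 to 525 and box H/ACA rows 281 to 468. The other 678 rows under 200 bases supplied 220 to 323.

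**Figure D2:**
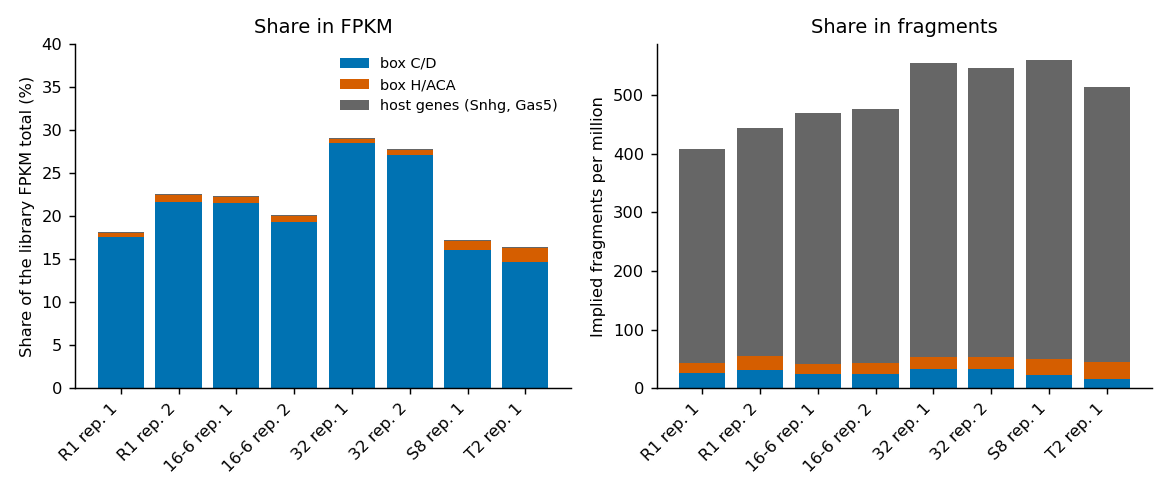
Share of the library FPKM total in percent (left) and implied fragments per 1000000 (right) held by box C/D rows, box H/ACA rows and host genes, stacked, in each of the 8 libraries. The FPKM bars are almost entirely box C/D and highest in 32, at 27.8% and 29.1%. The fragment bars are almost entirely host genes and lowest in R1.

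Most box C/D rows were barely covered. Of the 77 box C/D rows, 21 were listed at 0 in all 8 libraries, 26 had at least 1 fragment in every library and 12 had at least 10 fragments on average. Of the 37 box H/ACA rows, 4 were at 0 everywhere, 24 were seen in every library and 10 had at least 10 fragments on average. All 12 host genes were seen in every library, with a median of 330 fragments. All 10 rows of the Snord116 family, the imprinted brain-expressed cluster between Snrpn and Ube3a, were at 0 in all 5 lines. Snord64 of the same region and Snora35, which lies in the serotonin receptor gene Htr2c, were at 0 as well. A row at 0 in these libraries says nothing of the mature RNA, which lacks a poly(A) tail. The study also kept only reads that matched 1 place, so fragments that match several copies of a family would be missing. The part of this in the zeros was not tested.

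**Figure D3:**
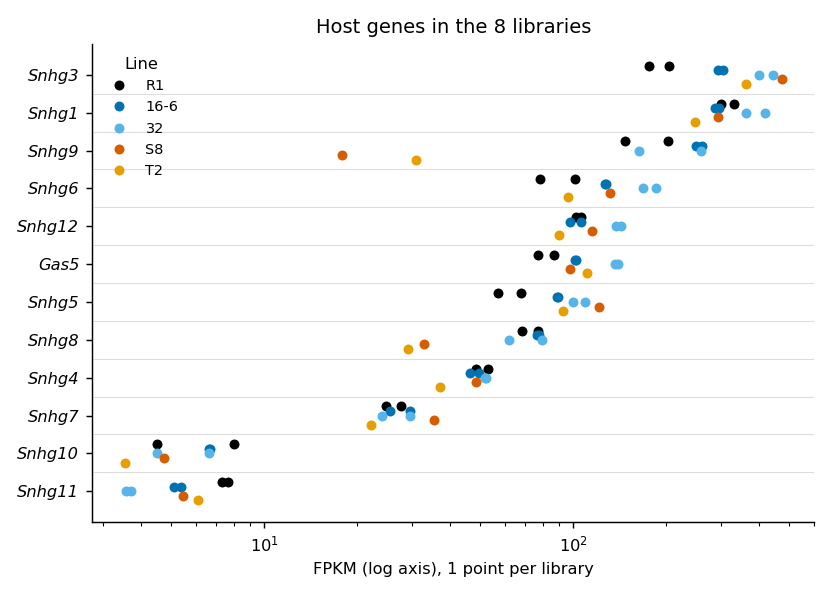
FPKM (log axis) of the 12 host genes, 1 point per library, colored by line. The R1 points of Snhg3, Gas5 and Snhg5 lie to the left of all other lines, and the S8 and T2 points of Snhg9 and Snhg8 lie apart on the left.

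For tests, log2(FPKM + 1) was fitted with limma over the 13693 genes that reached 1 FPKM in some library. Of the members, 100 entered the fit: 56 box C/D rows, 32 box H/ACA rows and 12 host genes. A gene was called where its Benjamini-Hochberg adjusted p was below 0.05 and its log2 difference at least 1 in size. Differences are on the log2(FPKM + 1) scale with their standard error, and the spread comes from the lines with 2 libraries. The fit leaves 3 residual degrees of freedom, and its standard errors can lie below the counting error of a row with few fragments. In bulk samples fewer cells of a type and less RNA per cell cannot be told apart. The study grew its ESCs and iPSCs on feeder cells, embryonic fibroblasts of ICR mice treated with mitomycin C. It does not state how far these were removed before RNA was taken. The sum of 12 fibroblast marker genes, all of them detected, was 3630 to 3642 FPKM in 16-6, 1337 to 1369 in R1, 1118 in T2, 763 in S8 and 450 to 453 in 32, and its part in the differences was not tested. The 10 pluripotency markers were detected and summed to 2732 to 5550 FPKM. Of the markers of the parental tissues, 0 of 3 epidermal, 1 of 3 stomach, 1 of 3 adipose and 2 of 3 blood genes reached 1 FPKM in any library.

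Snhg3, which contained no short row of these files, was the host gene with the largest rise in the iPSC lines. It had 204 and 175 FPKM in R1, 294 and 305 in 16-6, 444 and 398 in 32, 473 in S8 and 362 in T2. All 6 iPSC libraries lay above both R1 libraries. Snhg3 rose by 1.15 ± 0.09 in 32 (adjusted p = 0.000491) and by 1.32 ± 0.11 in S8 (adjusted p = 0.000472), and the mean of the iPSC lines exceeded R1 by 1.02 ± 0.08 (adjusted p = 0.000364). The differences of 16-6, 0.66 ± 0.09, and of T2, 0.93 ± 0.11, stayed under the fold limit. In fragments, 843 in R1 stood against 1298 in S8, a ratio of 2.97 per 1000000 (exact 95% interval 2.72 to 3.25). Scaling the libraries to rows that are neither members nor short moved the median of all genes by -0.20 in 32 and by -0.25 in S8, and the difference of Snhg3 in 32 was then 0.94. The adjusted p stayed below 0.05 but the difference fell under the limit of 1 in several settings. With quantile normalization it was 0.88 in 32, 0.95 in S8 and 0.82 for the mean, and with fragments it was 0.99 in 32. For the mean it was 0.98 with a pseudocount of 10 and 0.89 with the scaling to other rows. Without R1 replicate 2 the mean difference was 0.91 and without 32 replicate 1 it was 0.995, both under the fold limit.

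Gas5, Snhg5 and Snhg6 also had their lowest levels in R1, below the fold limit. Gas5, named for its accumulation in growth-arrested cells, had 76.7 and 86.6 FPKM in R1, 102 in both libraries of 16-6, 140 and 136 in 32, 97.8 in S8 and 111 in T2. Snhg5 had 57.3 and 67.8 in R1, 88.8 and 89.5 in 16-6, 109 and 99.7 in 32, 121 in S8 and 92.7 in T2. For Gas5 and Snhg5 all 6 iPSC libraries exceeded R1, and for Snhg6 5 of 6 did. The mean of the iPSC lines exceeded R1 by 0.44 ± 0.05 for Gas5 (adjusted p = 0.00148), by 0.69 ± 0.08 for Snhg5 (adjusted p = 0.00113) and by 0.54 ± 0.11 for Snhg6 (adjusted p = 0.00824). The sign of these differences held under the 3 other scalings. Under scaling to rows that are neither members nor short, the difference of Gas5 in S8 came to 0.0022.

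Snhg11 ran the other way. It had 7.29 and 7.62 FPKM in R1, 5.36 and 5.10 in 16-6, 3.70 and 3.56 in 32, 5.45 in S8 and 6.11 in T2, so that every iPSC library lay below R1. Line 32 was lowest, with a difference of -0.87 ± 0.06 (adjusted p = 0.000312), under the fold limit. In fragments 440 in 32 stood against 966 in R1, a ratio of 0.451 per 1000000 (exact 95% interval 0.402 to 0.505).

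Snhg9 and Snhg8 were lower in S8 and T2 than in the other 6 libraries. Snhg9, a short host gene that contains Snora78, had 203 and 147 FPKM in R1, 261 and 249.5 in 16-6, 260.05 and 163 in 32, 17.8 in S8 and 30.9 in T2. In fragments, S8 had 3 and T2 had 6, against 32 to 55 in the other libraries. Snhg9 fell in both, with a difference of -3.20 ± 0.32 in S8 (adjusted p = 0.00075) and of -2.44 ± 0.32 in T2 (adjusted p = 0.00264). Snhg8, which contains Snora24, had 77.0 and 68.0 FPKM in R1, 76.1 and 77.4 in 16-6, 79.1 and 61.8 in 32, 32.8 in S8 and 29.2 in T2. It fell by 1.12 ± 0.16 in S8 (adjusted p = 0.00229) and by 1.28 ± 0.16 in T2 (adjusted p = 0.00216), and in fragments the difference of S8 was -0.92, under the fold limit. The study lists far more reads for S8 and T2 than for the other lines, with a lower share mapped uniquely. As S8 and T2 are also single libraries, the line and the library cannot be told apart.

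The remaining host genes, Snhg1 (the U22 host), Snhg4, Snhg7, Snhg10 and Snhg12, were not called in any comparison. Their differences from R1 lay between -0.63 for Snhg10 in T2 and 0.43 for Snhg12 in 32. Snhg1 was among the highest host genes, with 249 to 417 FPKM, next to Snhg3 with 175 to 473, and these ranges overlapped. Snhg10 and Snhg11 were lowest, with 3.54 to 7.99 and 3.56 to 7.62 FPKM. The sign of at least 1 of their differences turned under another scaling for each of Snhg1, Snhg4, Snhg7, Snhg10 and Snhg12.

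RefSeq gives starts for 10 of the 12 host genes in GRCm38.p6. A run of at least 5 pyrimidines from the listed start, known from genes whose translation follows growth, was present at 4 of the 11 starts of these genes. It was present at 4.44% of all 32851 listed starts and at 2 of 13 starts of ribosomal protein genes that contain short RNAs. Only 13 of the 21 such genes were covered. The first transcribed base was not measured in these lines, so a listed start without the run does not show that the RNA lacks it. The stretches from 10 bases before the start to 20 after are shown for the hosts described above that differ in this respect, with the run in capitals. Gas5 has 2 listed starts.
Gas5, upstream start (chr1:161034591-161034620, plus strand): gcgggcccgcgagctcgacagcccggagcc
Gas5, downstream start (chr1:161035156-161035185, plus strand): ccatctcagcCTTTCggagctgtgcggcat
Snhg3 (chr4:132353667-132353696, minus strand): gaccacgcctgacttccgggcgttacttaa
Snhg8 (chr3:123508317-123508346, minus strand): gttcagaagtCTCTTTggctgcgatccgcc

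Calls among the short RNAs have to be read against their depth. In 16-6 against R1, 5 of the 100 members tested were called, 3 higher and 2 lower, where 7.11% of all genes were called, 3.58% higher and 3.53% lower. In 32 against R1, 14 were called, 13 higher and 1 lower, where 9.77% of all genes were called, 1.54% higher and 8.23% lower. In S8 against R1, 28 were called, 20 higher and 8 lower, against 16.7% of all genes, 6.93% higher and 9.74% lower. In T2 against R1, 20 were called, 10 in each direction, against 10.5% of all genes, 3.95% higher and 6.54% lower. When the 4 iPSC lines were averaged and set against R1, 18 were called, 13 higher and 5 lower, against 6.41% of all genes, 1.85% higher and 4.56% lower. In 16-6 against 32, 9 were called, 1 higher and 8 lower, against 10.3% of all genes, 9.22% higher and 1.09% lower. The comparisons with R1 share its 2 libraries. The split by direction depended on the scaling. In 32 it was 5 higher and 2 lower with quantile normalization, 7 and 3 with scaling to rows that are neither members nor short, and 3 and 1 with fragments. In S8 it was 14 and 12, 17 and 13, and 19 and 6 in the same order. For the iPSC mean it was 11 and 8, 11 and 9, and 4 and 3, and in 16-6 against 32 it was 2 and 5, 2 and 6, and 2 and 4. In 16-6 against R1, where few were called, it was 3 and 3 under both of the first scalings. Many of these calls had under 10 fragments in every library: 2, 6, 10, 8, 12 and 3 in the order given. Snord70, with 2 fragments at most and 0 in R1, is an example, and its fitted difference depends on the constant added before the logarithm. The text below therefore keeps to the 22 short RNAs with at least 10 fragments on average over the 8 libraries. Of these, Snord100, Snora68 and Snora70 had 8.83, 8.50 and 9.17 on average over the 6 libraries of R1, 16-6 and 32 and passed only through S8 and T2.

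**Figure D4:**
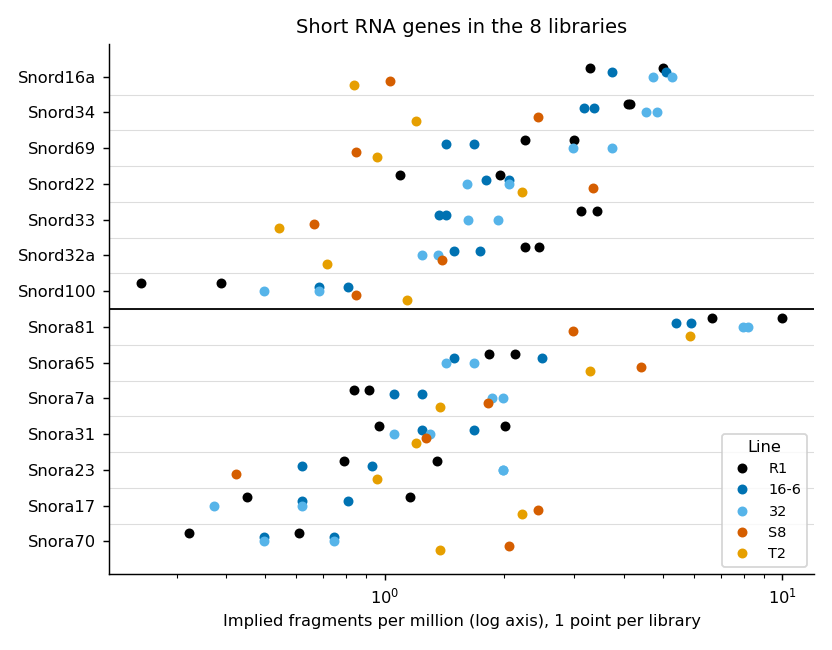
Implied fragments per 1000000 (log axis) of the named short RNAs, 1 point per library, colored by line, with box C/D RNAs above the line and box H/ACA RNAs below it. The S8 and T2 points of Snord16a, Snord33 and Snord69 lie left of the others, and those of Snora17, Snora65 and Snora70 lie right.

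Snord33, 1 of 4 box C/D RNAs in the ribosomal protein gene Rpl13a, was lower in every iPSC library than in R1. It had 4899 and 4521 FPKM in R1, 2073 and 2123 in 16-6, 3105 and 2657 in 32, 873 in S8 and 752 in T2, or 53 and 51, 22 and 23, 31 and 26, 11 and 9 fragments. The groups of R1 and of the iPSC lines did not overlap. Snord33 fell by 1.17 ± 0.10 in 16-6 (adjusted p = 0.000695), by 2.43 ± 0.12 in S8 (adjusted p = 0.000127) and by 2.64 ± 0.12 in T2 (adjusted p = 0.000206). The mean of the iPSC lines was below R1 by 1.74, a difference of -1.74 ± 0.08 (adjusted p = 0.000118), and 32 differed by -0.71 ± 0.10 under the fold limit. The ratio of fragments per 1000000 to that of R1 had exact 95% intervals of 0.295 to 0.613 in 16-6, 0.385 to 0.756 in 32, 0.0989 to 0.381 in S8 and 0.0735 to 0.326 in T2. These calls held under every alternative tried.

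The other RNAs of Rpl13a varied less alike. Snord32a had 35 and 40 fragments in R1, 24 and 28 in 16-6, 20 and 22 in 32, 23 in S8 and 12 in T2, again with every iPSC library below R1, and fell by 1.79 ± 0.14 in T2 (adjusted p = 0.000701). Snord34 had 64 and 67 in R1, 54 and 51 in 16-6, 78 and 73 in 32, 40 in S8 and 20 in T2, and fell by 1.83 ± 0.18 in T2 (adjusted p = 0.00126). Snord35a had 3 to 7 fragments per library. Rpl13a itself, a protein of the large ribosomal subunit, had 1725 and 1926 FPKM in R1, 1542 and 1605 in 16-6, 1901 and 1921 in 32, 1752 in S8 and 1278 in T2. Its difference was -0.51 in T2 and lay between -0.21 and 0.07 in the other lines. The call of Snord34 in T2 was lost with no filter on low values and under quantile normalization, with an adjusted p of 0.624 in the former and a difference of -0.96 in the latter.

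Snord16a and Snord69 were low in S8 and T2. Snord16a, in an intron of the ribosomal protein gene Rpl4, had 51 and 82 fragments in R1, 60 and 82 in 16-6, 76 and 85 in 32, 17 in S8 and 14 in T2. R1, 16-6 and 32 overlapped, and S8 and T2 lay below all of them. Snord16a fell by 1.92 ± 0.31 in S8 (adjusted p = 0.00409) and by 2.29 ± 0.31 in T2 (adjusted p = 0.00312), while Rpl4 differed by -0.01 and -0.22. Snord69, in an intron of the nucleolar stem cell gene Gnl3 (nucleostemin), had 35 and 49 fragments in R1, 27 and 23 in 16-6, 48 and 60 in 32, 14 in S8 and 16 in T2. It fell by 1.56 ± 0.30 in S8 (adjusted p = 0.00731) and by 1.47 ± 0.30 in T2 (adjusted p = 0.0113), and was lower in 16-6 than in 32 by a difference of -1.26 ± 0.25 (adjusted p = 0.0088). Gnl3 differed from R1 by -0.16 to 0.35. With quantile normalization the difference of Snord69 was -0.51 in T2 (adjusted p = 0.233) and -0.26 between 16-6 and 32 (adjusted p = 0.440), and the latter call was also lost without 16-6 replicate 2, at -1.15. The calls of Snord69 in S8 and T2 were lost with no filter on low values, with an adjusted p of 0.917 and 0.946.

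Snord100 was picked because it was called in the iPSC mean with every iPSC library above R1, so that direction is a description and no finding. It lies in an intron of the ribosomal protein gene Rps12 and had 6 and 4 fragments in R1, 13 and 11 in 16-6, 8 and 11 in 32, 14 in S8 and 19 in T2. Snord100 reached 10 fragments on average only through S8 and T2. It differed from R1 by 1.32 ± 0.26 in 16-6, 1.09 ± 0.26 in 32, 1.28 ± 0.31 in S8 and 1.59 ± 0.31 in T2. Each of these was called, but the same values took part in its choice, so the calls are a description too. Rps12 differed by -0.08 to 0.27. With 10 fragments in R1, the ratio in 32 had an exact 95% interval of 0.832 to 4.53, which includes 1, and the call in 32 was lost without R1 replicate 2, with a difference of 0.77, and without 32 replicate 2, with one of 0.89. The call in S8 was lost without R1 replicate 2 (0.96) and that in 16-6 without 16-6 replicate 1 (1.21). Over all alternatives the call was lost in 7 of 19 in 32, 1 of 19 in 16-6, 3 of 17 in S8 and 1 of 17 in T2. In 32 the difference was 0.78 with quantile normalization, 0.88 with scaling to other rows and 0.74 with fragments. Snord22, the U22 RNA needed for processing of the small subunit rRNA, had 17 and 32 fragments in R1, 33 and 29 in 16-6, 26 and 33 in 32, 55 in S8 and 37 in T2. Its rise in S8, 1.08 ± 0.36 (adjusted p = 0.0447), was lost when any 1 library of 16-6 or 32 was left out, which leaves the difference at 1.08, and without R1 replicate 1, where it was 0.65.

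Snora81 was the short RNA with the most fragments. This box H/ACA RNA of the translation factor gene Eif4a2 had 103 and 164 fragments in R1, 87 and 95 in 16-6, 132 and 128 in 32, 49 in S8 and 98 in T2. S8 was the lowest library. Snora81 fell by 1.85 ± 0.25 in S8 (adjusted p = 0.00198) and differed by -0.89 ± 0.25 in T2 and by -0.51 ± 0.20 in 16-6. Eif4a2 differed by -0.64 in S8, -0.62 in T2 and -0.70 in 16-6. By the annotation Snora81, Snora65, Snora17 and Snora70, like Snord22, Snord32a, Snord33 and Snord34, overlap an exon of some transcript of their hosts. That transcript may be one that keeps an intron, so these RNAs are not shown to be exonic. Fragments of the host RNA can be counted there, and their part in these values was not tested.

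Snora65, Snora17 and Snora7a were called higher in S8 and were not called in T2, where their differences were 0.90, 1.82 and 0.61. Snora28 of Eif5, named after its values were seen, differed by -0.95 ± 0.12 in S8 and by 0.80 ± 0.12 in T2 and was not called in either. Snora65 of Rpl12 had 33 and 30 fragments in R1, 24 and 40 in 16-6, 23 and 27 in 32, 73 in S8 and 55 in T2, and rose by 1.37 ± 0.31 in S8 (adjusted p = 0.0127). Snora17 of Snhg7 had 7 and 19 in R1, 13 and 10 in 16-6, 10 and 6 in 32, 40 in S8 and 37 in T2, and rose by 2.02 ± 0.62 in S8 (adjusted p = 0.0352). Snora7a, in an intron of Rpl32, had 13 and 15 in R1, 17 and 20 in 16-6, 30 and 32 in 32, 30 in S8 and 23 in T2. Snora7a rose in 32 by 1.31 ± 0.10 (adjusted p = 0.000418), where all alternatives kept the call, and in S8 by 1.04 ± 0.12 (adjusted p = 0.00117). For Snora65 and Snora17 S8 and T2 lay above all other libraries, while Snora7a was as high in 32. The rise of Snora17 in S8 was lost in 8 of 17 alternatives, among them leaving out either library of 16-6 or 32, and without R1 replicate 1 it came to 1.33. The rise of Snora65 was lost without R1 replicate 2 (1.26) and that of Snora7a in S8 without R1 replicate 1 (0.97). With quantile normalization these differences in S8 were 0.96 for Snora65 and 0.65 for Snora7a, and with scaling to other rows that of Snora7a was 0.79.

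Snora23, in the importin gene Ipo7, differed in the same direction as its host in 32 and S8. It had 21 and 13 fragments in R1, 10 and 15 in 16-6, 32 and 32 in 32, 7 in S8 and 16 in T2. Snora23 rose in 32 by 1.12 ± 0.31 (adjusted p = 0.0259) and fell in S8 by 1.38 ± 0.37 (adjusted p = 0.0235), where Ipo7 differed by 0.63 and -0.74. The call in 32 was lost in 7 of 19 alternatives, with 0.75 without R1 replicate 2, 1.12 without 32 replicate 1 and 1.13 without 32 replicate 2. The call in S8 was lost in 5 of 17, with an adjusted p of 0.0618 without R1 replicate 1 and with a difference of -1.38 without either library of 32. Snora31 of Tpt1p had 15 and 33 fragments in R1 and 17 to 27 elsewhere and was not called, whereas Tpt1p, the translationally controlled tumor protein, differed by -0.71 in S8 and -0.91 in T2. Snora70 of the X-linked ribosomal protein gene Rpl10, named after its values were seen, had 5 and 10 fragments in R1, 8 and 12 in 16-6, 12 and 8 in 32, 34 in S8 and 23 in T2. It passed the depth limit only through S8 and T2, and its differences there, 2.18 ± 0.49 and 1.54 ± 0.49, are given as a description.

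S8 and T2 together were then set against 16-6 and 32 in the same fit, a comparison chosen after the data had been seen, which equals the difference between their differences from R1. Of the 100 members tested, 32 were called, 16 in each direction, where 4.97% of all genes were called, 2.86% higher and 2.12% lower. With fragments in place of FPKM 13 were higher and 6 lower. Of the 32, 14 had under 10 fragments in every library. Among the 12 box C/D RNAs with at least 10 fragments on average, 5 were lower (Snord16a, Snord33, Snord34, Snord69 and the copy of Snord58b in Rpl17) and 0 higher, with a median of -0.88 over the 12. Among the 10 box H/ACA RNAs, 4 were higher (Snora17, Snora65, Snora68 and Snora70) and 2 lower (Snora23 and Snora81), with a median of 0.14. Snora68 and Snora70 had reached 10 fragments only through S8 and T2. With the depth taken over the other 6 libraries, a choice made after seeing the data, 2 of 8 box H/ACA RNAs were higher and 2 lower, with a median of -0.14, and 0 of 11 box C/D RNAs were higher and 5 lower, with a median of -0.93. Among the host genes Snhg8 and Snhg9 were lower. The median of all genes tested was 0.02.

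**Figure D5:**
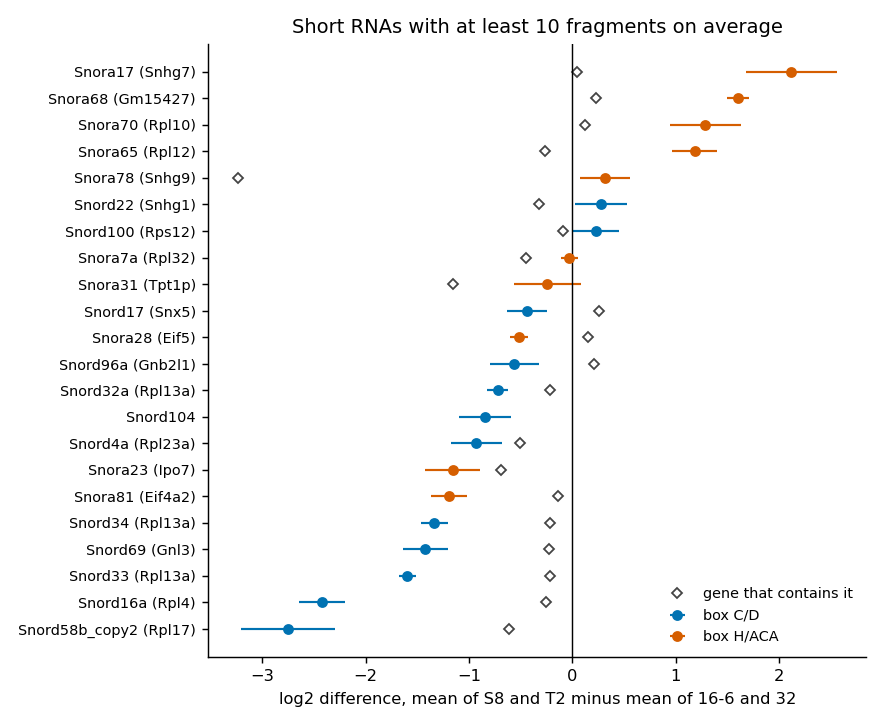
log2 difference of the mean of S8 and T2 from the mean of 16-6 and 32 for the 22 short RNAs with at least 10 fragments on average, with the standard error as bars and the host in brackets. Open diamonds give the gene that contains each RNA. Box C/D RNAs fill most of the lower end, the highest 5 are box H/ACA RNAs, of which Snora68 and Snora70 passed the depth limit only through S8 and T2, and the diamonds lie mostly near 0, with Snhg9 at -3.23 as the exception farthest out.

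The ratio of the classes within a library showed the same libraries apart and needs no scaling between libraries. The log2 ratio of box C/D to box H/ACA fragments was 0.51 and 0.33 in R1, 0.46 and 0.27 in 16-6, 0.59 and 0.58 in 32, -0.27 in S8 and -0.74 in T2. Box C/D fragments outnumbered box H/ACA fragments in all 6 libraries of R1, 16-6 and 32 and not in S8 and T2, and R1 and 16-6 overlapped. Libraries of a line were closer to each other than to those of other lines (exact permutation test, one-sided, p = 0.00952, adjusted 0.0190). In FPKM the log2 ratio was 5.24 and 4.81 in R1, 4.91 and 4.90 in 16-6, 6.01 and 5.67 in 32, 3.86 in S8 and 3.23 in T2 (exact permutation test, one-sided, p = 0.00714, adjusted 0.0190). The FPKM ratio also carries the length correction, which differed between libraries. The median FPKM of 1 fragment was 290 in S8, 265 in T2 and 281 to 362 in the other libraries for box C/D rows. For box H/ACA rows it was 21.3 in S8, 20.6 in T2 and 20.9 to 24.1 in the other libraries. Its part in the FPKM ratio was not tested. The fragment test does not compare S8 or T2 with any line on its own, which single libraries do not allow. With the median over genes in place of the sum, p was 0.0905.

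Length moved with this pattern. Box C/D rows had a median length of 68 bases and box H/ACA rows one of 118. Of the 22 short RNAs, the 11 under 100 bases had a median difference of -0.93 between S8 and T2 and 16-6 and 32, and the 11 of 100 bases or more had one of -0.03. Across these 22 genes, which share libraries and are not independent, Spearman's rho between length and difference was 0.47. Of the 22, Snord100, Snora68 and Snora70 reached 10 fragments on average only through S8 and T2, and the relation to length was not computed without them. The part of length in the difference between the classes was not tested. The 678 other rows under 200 bases, set apart by name alone, had 13.3 and 14.5 fragments per 1000000 in S8 and T2 and 15.1 to 20.9 in the other libraries.

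Short RNAs were compared with the genes that contain them. Of the 114 short rows, 100 lay within another gene of the files, with 72 distinct hosts, 21 of which code for ribosomal proteins. By the annotation 63 of them counted as intronic and 32 as exonic. A row counted as exonic where it overlapped an exon of any transcript of its host, which may be one that keeps an intron. Rpl13a and Snhg12 contained 4 each. Intronic rows had a median of 1.75 fragments on average and exonic rows 4.88. The log2 ratio of all short RNA fragments to all fragments of the containing genes ran from -9.94 to -9.58 over the 8 libraries (exact permutation test, one-sided, p = 0.655, adjusted 0.655). The ratio to the Snhg genes and Gas5 was -3.05 and -2.80 in R1 and -3.39 to -3.18 in the iPSC libraries, every one of which lay below R1 (exact permutation test, one-sided, p = 0.105, adjusted 0.126).

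Gene by gene, hosts moved less than the RNAs inside them. Over the 21 RNAs with a host and at least 10 fragments on average, the median size of the difference from R1 was 1.22 for the RNAs and 0.23 for the hosts in S8, 0.90 and 0.34 in T2, 0.62 and 0.30 in 32 and 0.41 and 0.11 in 16-6. RNA and host differed in the same direction for 16 of 21 pairs in S8, 13 in T2, 13 in 32 and 12 in 16-6. The smaller depth of the RNAs widens their differences, and the part of depth was not tested. Of the 13 such RNAs called in S8, 1 had a host that was called too, Snora78 in an intron of Snhg9, and these went in opposite directions: Snora78, which had 9 and 10 fragments in R1 and 17 in S8, rose by 1.01 ± 0.34 (adjusted p = 0.0477) where Snhg9 fell. Snora78 was named after its values were seen. Relative to library totals, the ratio of Snora78 fragments in S8 to those in R1 was 1.73. The exact 95% interval of this ratio, 0.844 to 3.51, included 1, so the fragments alone do not show a rise of Snora78. Snord100, Snora68 and Snora70, also among the 21 pairs and called higher in S8, reached 10 fragments on average only through S8 and T2. The medians and counts of pairs were not computed without them.

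Genes for the proteins that bind and process snoRNAs were looked at by list, where the shares of all genes called were those given above. Of the 4 box C/D core proteins (Fbl, Nop56, Nop58 and Nhp2l1), 0 were called in any comparison, and their median difference was 0.57 in 32, 0.40 in S8, 0.13 in T2 and -0.05 in 16-6. Of the 4 box H/ACA core proteins (Dkc1, Nhp2, Nop10 and Gar1), 1 was called, Nhp2, which rose by 1.03 in S8. Of the 12 assembly factors 0 were called against R1, and Naf1, which loads dyskerin onto nascent H/ACA RNAs, had 62.4 and 61.3 FPKM in S8 and T2 against 24.6 to 35.8 in the other libraries and was higher by 1.04 ± 0.07 in S8 and T2 than in 16-6 and 32 (adjusted p = 0.000332). Of the 7 genes for intron debranching and trimming, 1 was called, the exonuclease gene Xrn1, which fell by 1.70 ± 0.11 in S8 (adjusted p = 0.000218). Among the nonsense-mediated decay genes, the kinase gene Smg1 had 28.5 and 28.1 FPKM in R1 and 10.7 in S8, where it fell by 1.33 ± 0.07 (adjusted p = 0.000149). Of the 9 nucleolar proteins 0 were called. At an unadjusted limma p below 0.05, 4 of 4 box C/D core genes, 7 of 12 assembly genes and 9 of 9 nucleolar genes differed in 32, where 66.2% of all genes did, and 3, 10 and 5 differed in S8, where 70.0% did.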

How the data were processed

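RNA-seq of poly(A)-enriched RNA from 8 libraries of 5 mouse lines was used. The deposited FPKM values and their confidence limits were made by the authors with TopHat2 2.0.4, Bowtie and mm9, and with Cufflinks 2.0.0 per the labels (the study's methods name a later release). Deposited files hold no counts. FPKM were divided by 12725.7 for all libraries. Fragments were recovered by dividing 2 × FPKM by the distance to its upper limit and squaring the quotient. limma 3.58.1 (R 4.3.3, lmFit and eBayes with trend, 3 residual degrees of freedom) was fitted to log2(FPKM + 1) for 13693 genes with at least 1 FPKM in some library, with the Benjamini-Hochberg adjustment over all of them. S8 and T2, single libraries, were assumed to vary like the others. The script was tested on simulated data. Single values were tested by exact permutation in Python 3.11.15.

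Named were Gas5 and every Snhg gene, the 6 box C/D and 6 box H/ACA genes with most fragments, up to 6 short RNAs in each direction that were called in the iPSC mean with all iPSC libraries on 1 side of R1, and their hosts. Members and lists were chosen with earlier results of these data known. Alternatives changed the pseudocount, filter, scaling, weights, trend, fold limit and libraries, and added a replicate block. Replicate numbers did not pair the samples. The results for 1 gene of the nonsense-mediated decay list are not reported here.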

Additional observations from a re-analysis of the deposited data

Results flagged for a closer look

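The differences below are each between the mean of S8 and T2 and the mean of 16-6 and 32. They equal the difference between the contrasts of these lines with R1. This comparison was chosen after the data had been seen. The adjusted p-values, from limma with Benjamini-Hochberg adjustment over all genes, lay below 0.05. Because of that choice they describe these differences and are no independent test of them. They stood out because the effect of the line was not the same in both pairs of lines. S8 and T2 are single libraries, and line and library cannot be told apart.

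Among box C/D RNAs the difference was -2.42 ± 0.22 for Snord16a (adjusted p = 0.000671), -1.60 ± 0.08 for Snord33 (adjusted p = 0.000195), -1.42 ± 0.21 for Snord69 (adjusted p = 0.00332) and -1.34 ± 0.13 for Snord34 (adjusted p = 0.000803). All 4 had fewer fragments in S8 and in T2 than in any library of 16-6 or 32. Among box H/ACA RNAs it was -1.19 ± 0.17 for Snora81 (adjusted p = 0.00303), -1.16 ± 0.26 for Snora23 (adjusted p = 0.0138), 1.18 ± 0.22 for Snora65 (adjusted p = 0.00669) and 2.12 ± 0.44 for Snora17 (adjusted p = 0.00983). Calls were lost with quantile normalization for Snord69 (-0.51, adjusted p = 0.107) and Snord34 (-0.48), with fragments for Snora81 (-0.68), Snora23 (-0.85) and Snhg8 (-0.90), without 16-6 replicate 1 for Snora65 (1.00), and with no filter on low values for Snord69, Snord34 and Snora23 (adjusted p = 0.839, 0.619 and 0.0633). Among host genes it was -3.23 ± 0.22 for Snhg9 (adjusted p = 0.000339) and -1.22 ± 0.11 for Snhg8 (adjusted p = 0.000646).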

How the results depend on the processing

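The called differences of named genes kept their sign under the alternatives run, and some lost the call. Differences that were not called turned sign under another scaling for Snhg1, Snhg4, Snhg7, Snhg10 and Snhg12. Members called changed by more than 1.5 times as follows. In 16-6 against R1 there were 3 with fragments in place of FPKM and 17 with no fold minimum. In 32 there were 6 with no filter on low values, 6 with at least 10 fragments, 7 under quantile normalization, 4 with fragments and 24 with no fold minimum. In S8 there were 16 with no filter and 16 with at least 10 fragments. In T2 there were 12, 11 and, with no fold minimum, 31. For the iPSC mean there were 9 with 1 FPKM required in every library, 5 with at least 10 fragments, 7 with fragments and 35 with no fold minimum. In 16-6 against 32 there were 3 with at least 10 fragments and 22 with no fold minimum. In S8 and T2 against 16-6 and 32 there were 18 with no filter, 13 with at least 10 fragments and 19 with fragments. The filters test fewer or more genes by construction, and the cause of the other changes was not tested.

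For single values, given as the iPSC mean minus R1, the share of FPKM was 0.446 points, 2.63 without the highest short RNA and -2.57 with at least 10 fragments (exact permutation p = 0.0333). The log2 ratio of box C/D to box H/ACA was -0.56 in FPKM, -0.15 without the highest gene of each class and -1.41 as a median over genes. In fragments it was -0.44, -0.66 and -0.97, the last with an exact permutation p of 0.0905. The log2 ratio of short RNAs to Snhg genes and Gas5 was -0.39, -0.20 without the highest gene, -0.51 with at least 10 fragments (exact permutation p = 0.0310) and 0.30 as a median. The ratio to containing genes was -0.10, -0.23 with at least 10 fragments and 0.25 as a median.

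Leaving out 1 library at a time gave 7 to 13 called in 16-6, 11 to 15 in 32, 26 to 28 in S8, 21 to 23 in T2, 18 to 23 in the iPSC mean, 9 to 18 in 16-6 against 32 and 28 to 34 in S8 and T2 against 16-6 and 32. Here 16-6 reached 13, and 16-6 against 32 reached 18, without 16-6 replicate 2. The share of FPKM then ran from -1.75 (without R1 replicate 1) to 2.64 (without R1 replicate 2), the share of fragments from 0.00806 to 0.0115, the class ratio from -0.78 to -0.35 in FPKM and from -0.53 to -0.35 in fragments, the ratio to Snhg genes from -0.52 to -0.27 and that to containing genes from -0.25 to 0.047. On the 6 libraries of R1, 16-6 and 32, a replicate block gave 4, 14 and 10 called members against 5, 14 and 9 without it. Same-numbered libraries deviated together with correlations of -0.0969, 0.00102 and 0.0282, so the numbers do not pair the samples. Depth limits the short RNAs most: 22 of 114 reached 10 fragments on average.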
